A study of Mus musculus with 30 samples.

Results

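Activins, bone morphogenetic proteins (BMPs) and transforming growth factors β (TGF-β) were followed in the small bowel *muscularis externa* (*ME*) of mice after abdominal surgery. The set was fixed by name and holds 10 of the 28586 genes in the count tables, namely the ligand genes *Inhba*, *Inhbb*, *Bmp2*, *Bmp4*, *Bmp6*, *Gdf15*, *Tgfb1*, *Tgfb2* and *Tgfb3* and the gene of the activin antagonist follistatin, *Fst*. Each gene was read in 29 libraries of 2 fractions. The first fraction, *RiboTag*, is mRNA bound to ribosomes with an HA-tagged RPL22 protein. By the labels, all its mice carry the *Sox10*-icre/ERT2 transgene and the *Rpl22*tm1.1Psam allele, so that the tag depends on the *Sox10* promoter, which in the *ME* is active in enteric glia. The second fraction is total *ME* RNA, the input. Its naïve and IM3h mice carry *Gfap*-cre with the same *Rpl22* allele, whereas its IM24h and IM72h mice carry the *Sox10*-icre/ERT2 line. In total *ME* RNA, mouse line and later time points therefore cannot be told apart. All were adult male mice, either naïve or killed after intestinal manipulation, the operation that produces post-operative ileus, with an interval of 3 h (IM3h), of 24 h (IM24h) or of 72 h (IM72h). The tables hold 3 naïve and 4 libraries per time point for *RiboTag*, and 3 naïve, 3 IM3h, 4 IM24h and 4 IM72h libraries for *ME*. The same 3 naïve *RiboTag* libraries are the controls of every *RiboTag* comparison, so that comparisons with them are not independent.

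The ligands of this family are secreted as dimers and signal through pairs of type I and type II serine/threonine kinase receptors. Activins and TGF-β lead to phosphorylation of SMAD2 and SMAD3, and BMPs to that of SMAD1, SMAD5 and SMAD9, which enter the nucleus with SMAD4. In the gut wall, BMPs are known from the patterning of the muscle layers and the enteric nervous system, and TGF-β and activin A from inflammation and repair. GDF15 is a divergent member that signals through the receptor GFRAL in the hindbrain and is widely used as a marker of cell stress.

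Total counts per library without AY036118, a transcript inside an rRNA gene, lay between 4249890 and 4732097 in naïve *RiboTag* libraries and between 5291294 and 7410141 in those of IM3h. They were lower in the IM24h libraries, with 1702478 to 4083376, and lowest in the IM72h libraries, with 663808 to 1619377. At IM72h AY036118 took up 58.0% to 80.1% of the *RiboTag* counts. At IM24h it took up 22.2% to 59.2%, and in the earlier *RiboTag* groups 2.0% to 14.0%. The *ME* libraries held 4391570 to 12564580 counts without it. Its share in *ME* moved with time in the other direction, from 16.1% to 33.5% in naïve and 24.1% to 25.1% in IM3h libraries to 1.3% to 6.5% for IM24h and 2.3% to 3.7% for IM72h, and its part in the changes in *ME* was not tested beyond leaving it out of the totals, which kept the count of members called in *ME* at each time point. Levels are given in CPM, that is counts relative to the library total, with totals scaled by TMM within a fraction, a normalization that centres most genes, and a change was called at a Benjamini-Hochberg adjusted p under 0.05 in the quasi-likelihood test of edgeR. Changes are log2 fold changes with their standard error (SE), and the median over all genes tested was -0.40 in *RiboTag* at IM72h. In the other comparisons with naïve mice it lay between -0.11 and 0.02. The summed level of 4 glial markers (*Sox10*, *S100b*, *Gfap*, *Ncam1*) was 1800 to 2255 CPM in naïve *RiboTag* and 229.5 to 259.6 CPM in naïve *ME* libraries. In *RiboTag* it was 1642 to 3190 CPM for IM3h, 758.3 to 1125 for IM24h and 181.7 to 1203 for IM72h. Smooth muscle markers were also present in *RiboTag* libraries (4353 to 6658 CPM in naïve mice against 20920 to 21850 in *ME*). In bulk RNA of this kind, fewer cells of a type and less RNA per cell cannot be told apart.

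*Inhba* and *Tgfb2* were the members called higher in *RiboTag* mRNA at IM3h. The 250 bases before their transcription start are shown for that reason (RefSeq, GRCm38.p6, printed 5′ to 3′ on the strand of the gene). Both calls were lost in a fit of all *RiboTag* groups, and that of *Tgfb2* also with 6 of 7 libraries left out. *Gdf15* had a larger difference at IM3h, which was not called (2.77 ± 1.18, adjusted p = 0.154). Capitals mark the TATA box letters TATAAA, the core TGACG of the cAMP response element, and CCAAT, each on either strand. The windows are chr13:16011601-16011850 on the plus strand for *Inhba* and chr1:186705990-186706239 on the minus strand for *Tgfb2*.
Inhba: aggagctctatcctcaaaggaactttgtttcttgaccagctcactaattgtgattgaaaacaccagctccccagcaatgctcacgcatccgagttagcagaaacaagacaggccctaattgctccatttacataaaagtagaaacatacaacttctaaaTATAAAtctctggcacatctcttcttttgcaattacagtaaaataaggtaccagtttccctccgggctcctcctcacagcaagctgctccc
Tgfb2: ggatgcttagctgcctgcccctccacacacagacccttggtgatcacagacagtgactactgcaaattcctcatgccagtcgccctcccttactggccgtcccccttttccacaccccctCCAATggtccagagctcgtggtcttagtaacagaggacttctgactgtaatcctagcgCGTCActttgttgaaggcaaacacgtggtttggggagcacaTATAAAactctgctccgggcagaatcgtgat
In *Tgfb2*, TATAAA begins 31 bases before the start, TGACG lies on the opposite strand (printed as CGTCA) 72 bases before it, and CCAAT begins 130 bases before it. In *Inhba*, TATAAA begins 91 bases before the start, and the window holds neither TGACG nor CCAAT on either strand. Of 32851 promoter windows, 12.4% hold TATAAA, 17.8% hold TGACG and 33.8% hold CCAAT. The longer motifs TGACGTCA, the whole cAMP response element that contains TGACG (1.55% of all windows), and TGAGTCA, an AP-1 site (4.46%), were found in none of the 7 members with a window. A match of letters is a description and not a binding site.

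The members moved in different directions. Against naïve mice, the filter on low counts kept 9 of the 10 at IM3h in *RiboTag*, then 8 (IM24h) and 7 (IM72h). In *ME* it kept 9 at IM3h and 8 at each later time point. *Bmp6* passed in no comparison. In *RiboTag* at IM3h, 2 members were called higher (background of all genes tested 8.86%) and 2 lower (background 4.44%). At IM24h, 1 was higher (background 0.366%) and 0 lower (background 0.131%), with 1 lower at an unadjusted p under 0.05. At IM72h, 0 were higher (background 1.05%), also at an unadjusted p under 0.05, and 2 lower (background 15.1%). In *ME*, 4 were higher and 1 lower at IM3h, where 19.3% of all genes were called higher and 13.4% lower. At IM24h, 2 were higher (background 15.6%) and 1 lower (background 13.4%), and at IM72h 4 were higher (background 29.3%) and 1 lower (background 28.3%). The *ME* backgrounds are high, and the counts there say little of the members as a group. The median log2 fold change of the members tested was 0.84, 0.63 and -1.24 in *RiboTag* at the 3 time points and 0.91, -0.14 and 0.84 in *ME*.

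**Figure D1:**
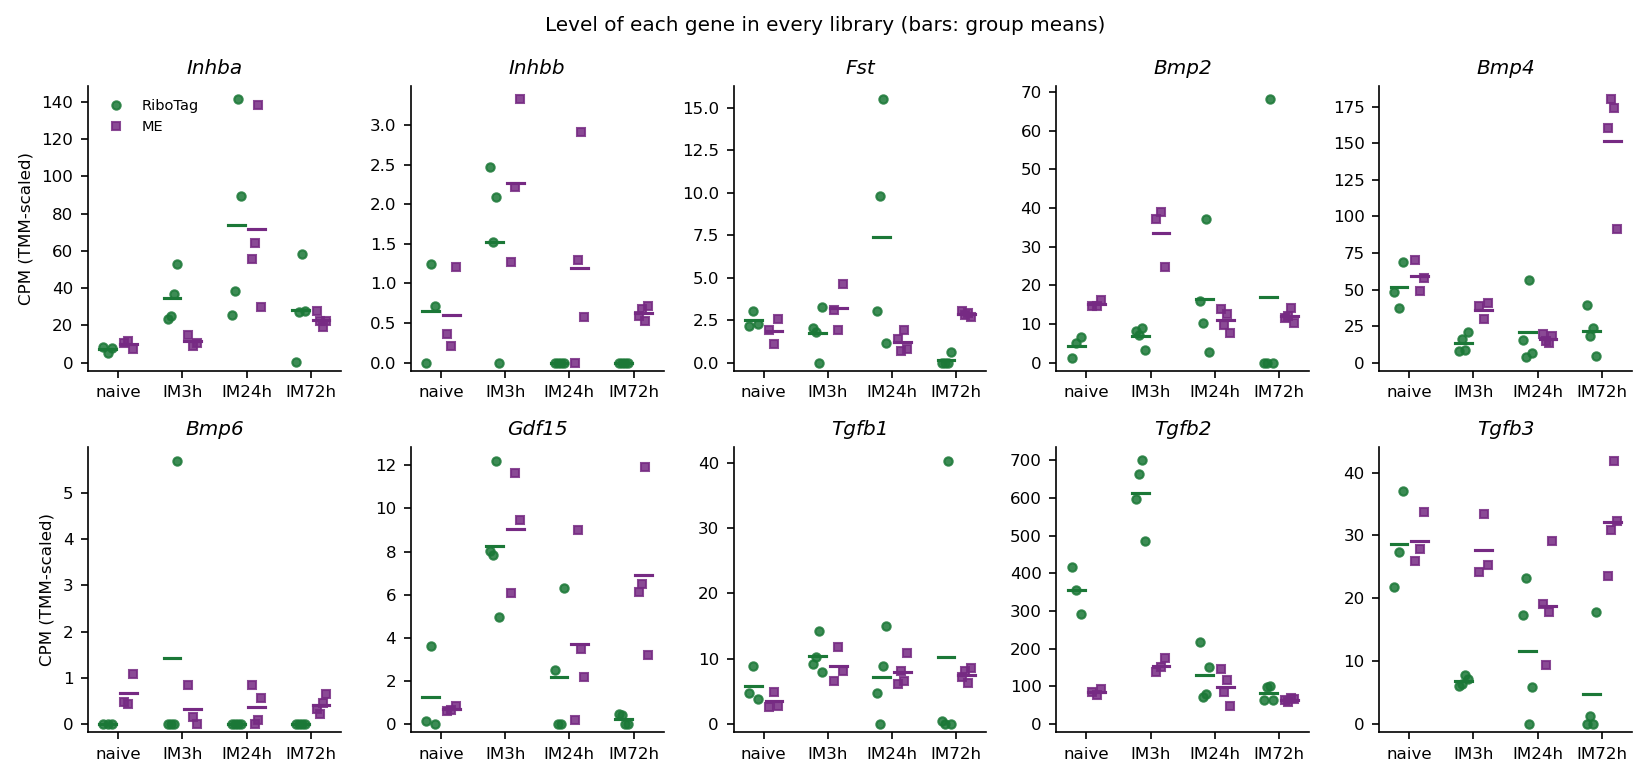
Level of each of the 10 genes in every library, in CPM on TMM-scaled totals (linear axes, which differ between panels), for naïve mice and for the IM3h, IM24h and IM72h groups. Green circles are *RiboTag* libraries, purple squares total *ME* libraries and bars group means. *Inhba* in *RiboTag* lay at 23.2 CPM or more at IM3h against at most 8.13 CPM in naïve mice, and *Bmp4* in *ME* reached 91.7 CPM or more at IM72h.

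*Inhba*, on chromosome 13 from 16011851 to 16031621 in mm10, encodes the βA subunit, which as a homodimer forms activin A. In naïve *RiboTag* libraries 1 to 3 it stood at 8.13, 5.08 and 7.94 CPM, and at IM3h in libraries 1 to 4 at 23.2, 25.0, 36.9 and 53.0 CPM. At IM24h the levels were 25.8, 38.4, 141.5 and 89.4 CPM, and at IM72h 0.475, 27.3, 58.6 and 27.7 CPM. Every library at IM3h and IM24h lay above every naïve library, whereas at IM72h library 1, with 1 count, fell below them all. *Inhba* rose in *RiboTag* at IM3h by 2.35 ± 0.40 (SE) on the log2 scale, which is 5.09-fold (adjusted p = 0.00276). At IM24h the rise was 3.39 ± 0.66 (10.5-fold, adjusted p = 0.0438), and at IM72h the difference was 2.07 ± 1.56 (adjusted p = 0.584). The call at IM3h held with each library left out, whereas in a single fit of all *RiboTag* groups none of the 4 members called at IM3h was called (adjusted p = 0.802 for *Inhba*). The call at IM24h was lost on library totals alone, on reference genes, without AY036118 and in the fit of all groups (adjusted p = 0.267, 0.345, 0.0517 and 0.300). It was also lost with 6 of 7 libraries left out in turn (highest adjusted p = 0.294). The 4 libraries at IM24h still exceeded the naïve ones, and the difference between IM24h and IM3h was not called (1.14 ± 0.53, adjusted p = 0.328).

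In total *ME* RNA *Inhba* followed another course. Naïve *ME* libraries held 10.8, 11.8 and 7.26 CPM and IM3h libraries 14.8, 9.002 and 10.3 CPM, so that the groups overlapped. At IM24h the levels were 55.4, 64.1, 138.1 and 29.6 CPM, and at IM72h 27.5, 22.5, 19.3 and 22.6 CPM. All libraries of both later time points lay above the naïve range. The test gave 0.26 ± 0.27 at IM3h (adjusted p = 0.502), a rise of 2.86 ± 0.47 at IM24h (7.24-fold, adjusted p = 0.00174) and a rise of 1.19 ± 0.20 at IM72h (2.29-fold, adjusted p = 0.000394). Between IM24h and IM72h it fell by 1.68 ± 0.37 on the log2 scale (adjusted p = 0.00486). The rise in *RiboTag* at IM3h exceeded that in *ME* by 2.19 ± 0.52 in the interaction of fraction and treatment (adjusted p = 0.0463). That call was lost with RLE factors and on reference genes (adjusted p = 0.0572 and 0.165) and with 10 of 13 libraries left out in turn (highest adjusted p = 0.141). The *RiboTag* mice and the *ME* mice of the naïve and IM3h groups belong to different lines, so that fraction and line cannot be told apart in the interactions at IM3h. At IM24h the interaction was 0.56 ± 0.78 (adjusted p = 0.851).

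Library numbers follow the order of names and do not link the fractions. Within each fraction, the IM24h library highest for *Inhba*, numbered 3 in both, also had the highest summed level of 4 neutrophil markers (*S100a8*, *S100a9*, *Csf3r*, *Cxcr2*). This sum was 206.9 CPM in *ME* (range of the group 43.9 to 206.9) and 49.2 CPM in *RiboTag* (range 7.18 to 49.2). In naïve mice the 4 markers summed to 0.646 to 0.847 CPM in *ME*, where none exceeded 3 counts, and to 1.24 to 3.18 CPM in *RiboTag*. The 6 macrophage and monocyte markers summed to 280.9 to 841.9 CPM in *ME* at IM24h against 141.0 to 167.2 CPM in naïve mice. Their highest sum was in *ME* library 4, where *Inhba* was lowest in its group (29.6 CPM), and in *RiboTag* (110.8 to 144.1 CPM at IM24h) in library 3, where *Inhba* was highest. The part of such cells in the level of *Inhba* was not tested. At IM3h, where *Inhba* was higher in *RiboTag*, the macrophage and monocyte sum was 41.4 to 82.98 CPM in that fraction against 67.9 to 111.9 CPM in naïve mice, and the neutrophil sum was 3.17 to 10.8 CPM. In *ME* at IM3h the neutrophil sum was 20.6 to 28.9 CPM, while *Inhba* was not called (0.26 ± 0.27, adjusted p = 0.502).

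*Inhbb*, on chromosome 1 from 119415465 to 119422248, encodes the βB subunit of activin B. It was near the detection limit, with 0, 11 and 6 counts in naïve *RiboTag* libraries, 32, 16, 18 and 0 at IM3h, and 0 in all 8 libraries at IM24h and IM72h. In *ME* it had 3, 1 and 10 counts in naïve mice and 9, 15 and 20 at IM3h (0.363, 0.215 and 1.21 CPM against 1.27, 2.21 and 3.32 CPM). The *ME* groups did not overlap at IM3h, and the difference of 1.83 ± 0.66 missed the threshold (adjusted p = 0.0563). At the depth of *RiboTag* at IM24h and IM72h a fall of *Inhbb* was not detectable.

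*Fst*, on chromosome 13 from 114452290 to 114458951, encodes follistatin, which binds activins and keeps them from their receptors. It was low throughout, at 2.16, 3.05 and 2.25 CPM in naïve *RiboTag* libraries and 2.01, 1.81, 0 and 3.27 CPM at IM3h. At IM24h it had 3.02, 9.81, 15.5 and 1.15 CPM, which spread wider than the difference from naïve mice (1.55 ± 1.40, adjusted p = 0.728). At IM72h the 4 libraries held 0, 0, 0 and 1 count against 17, 27 and 19 in naïve mice. *Fst* was called lower there (adjusted p = 0.0211), and with 3 counts per library as the floor it was at least 1.33-fold lower. That call was lost with DESeq2, without a filter on low counts and in a fit of all groups (highest adjusted p = 0.204). In *ME*, *Fst* stood between 1.08 and 2.54 CPM in naïve mice and at 3.03, 2.79, 2.94 and 2.67 CPM at IM72h, so that the groups were apart, but the difference of 0.54 ± 0.33 was not called (adjusted p = 0.180).

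**Figure D2:**
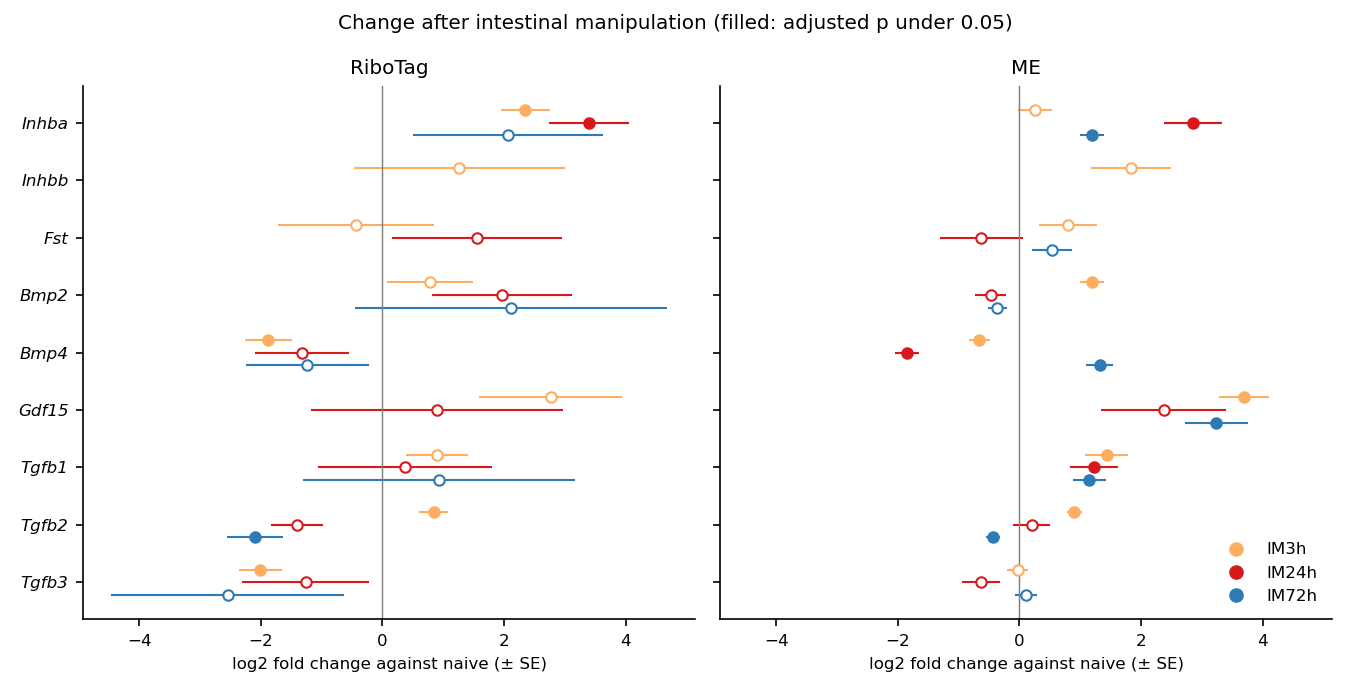
Log2 fold change against naïve mice (points) with its standard error (bars) in *RiboTag* (left) and total *ME* RNA (right) at IM3h (orange), IM24h (red) and IM72h (blue). Filled points have an adjusted p under 0.05, and a gene is not drawn where it failed the filter on low counts or where a group held 3 counts or fewer in every library. *Bmp4* in *ME* lay at -0.66, -1.85 and 1.32 at the 3 time points.

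*Bmp4*, on chromosome 14 from 46383520 to 46390669, is a BMP known to act on the development of enteric neurons and glia, and in *ME* its direction turned over time. Naïve *ME* libraries held 70.5, 49.3 and 57.8 CPM and IM3h libraries 38.6, 29.7 and 40.7 CPM. IM24h libraries held 19.8, 14.9, 13.3 and 17.9 CPM and IM72h libraries 160.3, 180.4, 174.1 and 91.7 CPM. None of these 4 groups overlapped another. *Bmp4* fell by 0.66 ± 0.17 on the log2 scale at IM3h (1.58-fold, adjusted p = 0.0130) and by 1.85 ± 0.20 at IM24h (3.60-fold, adjusted p = 0.000221). At IM72h it was 1.32 ± 0.22 higher than in naïve mice (2.499-fold, adjusted p = 0.000469). From IM24h to IM72h it rose by 3.17 ± 0.23 (8.98-fold, adjusted p = 1.55e-05), within the mice that share a line. The library names of these groups belong to different number series, so that series and time cannot be told apart there. All 4 calls held in every other setting and with each library left out.

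In *RiboTag*, *Bmp4* stood at 48.5, 37.3 and 68.9 CPM in naïve mice and at 7.88, 16.3, 8.84 and 20.8 CPM at IM3h. It fell there by 1.88 ± 0.39 on the log2 scale (3.67-fold, adjusted p = 0.00818), and every IM3h library lay below every naïve library. That call was lost without naïve library 3 (adjusted p = 0.0577). At IM24h the libraries held 15.6, 3.68, 56.8 and 6.87 CPM and at IM72h 39.5, 18.0, 24 and 4.31 CPM, which overlapped the naïve range. The differences were -1.32 ± 0.77 (adjusted p = 0.525) and -1.24 ± 1.01 (adjusted p = 0.629). The rise of *ME* at IM72h was not seen in *RiboTag*, and the interaction was -2.85 ± 0.82 (adjusted p = 0.0228). It ceased to be called with 3 of 14 libraries left out (naïve *RiboTag* library 3, naïve *ME* libraries 2 and 3; highest adjusted p = 0.0699). At IM3h the interaction was -1.13 ± 0.48 (adjusted p = 0.278). Marker levels of several cell types also differed between these *ME* groups. The 4 glial markers summed to 229.5 to 259.6 CPM in naïve mice, 224.9 to 262.3 CPM for IM3h, 122.6 to 205.2 CPM for IM24h and 277.8 to 390.8 CPM for IM72h, lowest and highest at the same times as *Bmp4*. The 4 fibroblast-like markers (*Pdgfra*, *Col1a1*, *Col3a1*, *Dcn*) summed to 1853 to 1956 CPM in naïve mice, 813.7 to 905.7 CPM at IM3h, 1004 to 2719 CPM at IM24h and 3025 to 3723 CPM at IM72h, so that they were higher at IM24h than at IM3h while *Bmp4* was lower. Smooth muscle markers summed to 20920 to 21850 CPM in naïve mice, then to 15780 to 18750, 2846 to 10080 and 11140 to 19580 CPM. Mesothelial markers summed to 86.7 to 125.5 CPM in naïve mice, then to 1.77 to 11.7, 6.51 to 73.8 and 30.2 to 71.4 CPM. In *RiboTag* the fibroblast-like markers summed to 635.1 to 746.2 CPM in naïve mice and 203.3 to 287.6 CPM at IM3h. The mesothelial markers summed there to 84.3 to 238.6 CPM in naïve mice and 6.97 to 68.2 CPM at IM3h. The part of these cells in the level of *Bmp4* was not tested.

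*Bmp2*, on chromosome 2 from 133552159 to 133562885, is the BMP that muscularis macrophages are known to supply to enteric neurons. In *ME* it rose early and briefly. Naïve libraries held 14.8, 14.6 and 16.1 CPM, IM3h libraries 37.1, 39.0 and 24.8 CPM, IM24h libraries 13.9, 9.71, 12.6 and 7.69 CPM, and IM72h libraries 11.6, 12.2, 14.0 and 10.3 CPM. The IM3h group lay above all others, and both later groups lay below the naïve one. The rise at IM3h was 1.20 ± 0.19 (2.29-fold, adjusted p = 0.00114), and the differences at IM24h and IM72h were -0.47 ± 0.25 (adjusted p = 0.191) and -0.37 ± 0.16 (adjusted p = 0.0647). The macrophage and monocyte markers summed to 118.2 to 138.8 CPM in *ME* at IM3h and to 141.0 to 167.2 CPM in naïve mice, with 2 of the 6 called higher and 2 lower. Their part in the level of *Bmp2* was not tested. In *RiboTag*, *Bmp2* had 1.14, 4.97 and 6.52 CPM in naïve mice and 8.27, 7.07, 9.07 and 3.36 CPM at IM3h (0.78 ± 0.71, adjusted p = 0.5499). At IM24h it had 16.0, 10.2, 37.3 and 2.86 CPM (1.97 ± 1.15, adjusted p = 0.523). At IM72h a single library held 71 counts and the other 3 held 0, which gives no level for the group.

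*Bmp6*, on chromosome 13 from 38345107 to 38500302, is a BMP best known as a signal for hepcidin in the liver. In *ME* no library held more than 10 counts. In *RiboTag* library 4 at IM3h held 61 counts and every other naïve and IM3h library 0, and the IM24h and IM72h tables, which hold entries of at least 10 counts in total, do not list it.

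*Gdf15*, on chromosome 8 from 70629393 to 70632456, rose most in fold among the members in *ME* at IM3h and IM72h. Naïve *ME* libraries held 0.605, 0.646 and 0.847 CPM and IM3h libraries 6.06, 11.7 and 9.48 CPM. IM24h libraries held 0.188, 9.01, 3.46 and 2.18 CPM and IM72h libraries 6.14, 6.47, 11.9 and 3.19 CPM. At IM3h and IM72h every library exceeded every naïve library, whereas at IM24h library 1, with 2 counts, lay below them. The rise was 3.69 ± 0.41 at IM3h (12.9-fold, adjusted p = 9.22e-05) and 3.24 ± 0.52 at IM72h (9.44-fold, adjusted p = 0.000330), and both calls held in every other setting and with each library left out. At IM24h the difference was 2.37 ± 1.03 (adjusted p = 0.110). It was called without that library (adjusted p = 0.0200), on library totals alone (0.0330) and in a fit of all groups (0.0385).

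In *RiboTag*, *Gdf15* had 1, 32 and 0 counts in naïve mice and 104, 82, 105 and 53 counts at IM3h (0.127, 3.62 and 0 CPM against 8.04, 7.83, 12.2 and 4.95 CPM). The groups did not overlap, and the difference of 2.77 ± 1.18 was not called (adjusted p = 0.154). Without naïve library 2, the library with 32 counts, the fitted value was 6.86 and was called (adjusted p = 0.00853). The difference between the fractions at IM3h was -0.85 ± 1.32 (adjusted p = 0.866), and without the same library its sign turned, to 3.21 (adjusted p = 0.188). At IM24h the counts were 20, 0, 0 and 33 and at IM72h 1, 1, 0 and 0. At IM72h the *ME* libraries held 49 to 158 counts, and the interaction called there (adjusted p = 0.0446) rests on a *RiboTag* group at the floor, so that its fitted value is no measure of size. It was lost with 10 of 14 libraries left out, and without naïve *RiboTag* library 2 the fitted value moved from -5.62 to -1.61 (adjusted p = 0.778).

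*Tgfb2*, on chromosome 1 from 186622792 to 186705989, encodes TGF-β2. In naïve *RiboTag* libraries it stood at 415.9, 356.6 and 293.4 CPM and at IM3h at 597.4, 662.6, 701.2 and 486.6 CPM. At IM24h it stood at 216.8, 71.5, 78.9 and 152.8 CPM and at IM72h at 63.2, 98.5, 99.9 and 64.6 CPM. IM3h libraries thus lay above and later libraries below the naïve range, without overlap. The rise at IM3h was 0.84 ± 0.24 (1.79-fold, adjusted p = 0.0392), and it was lost on library totals alone, on reference genes and in a fit of all groups (adjusted p = 0.107, 0.529 and 1.0) and with 6 of 7 libraries left out (highest adjusted p = 0.164). At IM24h the difference of -1.41 ± 0.43 was not called (adjusted p = 0.151; 0.0264 in DESeq2 and 0.0282 without IM24h library 1). At IM72h *Tgfb2* fell by 2.10 ± 0.46 on the log2 scale (4.28-fold, adjusted p = 0.0154), where the median of all genes was -0.40. This call was lost without naïve library 1 or 2 (highest adjusted p = 0.0773) and without a filter on low counts (adjusted p = 0.148). From IM3h to IM24h it fell by 2.16 ± 0.40 (4.48-fold, adjusted p = 0.0194), a call lost in 2 other scalings and with 5 of 8 libraries left out (highest adjusted p = 0.101 and 0.0681). The glial marker sum of *RiboTag* libraries was lower at IM24h and IM72h as well, as given above, and its part in the level of *Tgfb2* was not tested.

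In *ME*, *Tgfb2* stood at 85.8, 77.9 and 92.6 CPM in naïve mice, 137.8, 152.7 and 174.9 CPM at IM3h, 145.2, 84.8, 116.4 and 48.0 CPM at IM24h and 63.4, 60.0, 69.8 and 65.5 CPM at IM72h. The IM3h group lay above the naïve one, the IM24h group spread across it and the IM72h group lay below it. The rise at IM3h was 0.91 ± 0.12 (1.87-fold, adjusted p = 0.000296), close to that in *RiboTag*, and the interaction was 0.02 ± 0.26 (adjusted p = 0.994). The difference at IM24h was 0.20 ± 0.30 (adjusted p = 0.658). At IM72h it fell by 0.43 ± 0.11 on the log2 scale (1.35-fold, adjusted p = 0.00576), a direction that turned to 0.16 on library totals alone (adjusted p = 0.388), and in a fit of all groups the value was -0.40 (adjusted p = 0.206). The lower level in *RiboTag* at IM72h exceeded that in *ME* by -1.94 ± 0.45 in the interaction (adjusted p = 0.00584), where the median of all genes was -0.95. At IM24h the interaction was -1.59 ± 0.57 (adjusted p = 0.221).

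*Tgfb1*, on chromosome 7 from 25687002 to 25705077, encodes TGF-β1, which leukocytes and platelets are known to carry. In *ME* it was higher at all 3 time points. Naïve libraries held 2.66, 4.95 and 2.78 CPM, IM3h libraries 6.62, 11.8 and 8.15 CPM, IM24h libraries 6.12, 8.21, 6.65 and 10.9 CPM and IM72h libraries 7.14, 8.13, 6.27 and 8.64 CPM. Each of these groups lay above the naïve range. The rises were 1.44 ± 0.35 (2.71-fold, adjusted p = 0.0113), 1.22 ± 0.40 (2.33-fold, adjusted p = 0.0413) and 1.15 ± 0.27 (2.21-fold, adjusted p = 0.00385). At IM24h the call was lost on reference genes and without a filter (adjusted p = 0.245 and 0.0668) and with 5 of 7 libraries left out (highest adjusted p = 0.167), and at IM3h with 3 of 6 (naïve libraries 1 and 3 and IM3h library 2; highest adjusted p = 0.0609). Scaled by reference genes, the value at IM72h was 0.55 (adjusted p = 0.135). Neutrophil markers were higher in *ME* at these times too, and macrophage and monocyte markers at IM24h and IM72h but not at IM3h. The 4 neutrophil markers were each at or under the floor in naïve libraries (sum 0.646 to 0.847 CPM) and summed to 20.6 to 28.9 CPM in IM3h, 43.9 to 206.9 CPM in IM24h and 16.5 to 49.2 CPM in IM72h libraries, with 2 of 2, 4 of 4 and 4 of 4 tested called higher. Of the 6 macrophage and monocyte markers 2, 3 and 6 were called higher and 2, 0 and 0 lower. They summed to 118.2 to 138.8 CPM at IM3h, 280.9 to 841.9 CPM at IM24h and 388.1 to 518.5 CPM at IM72h, against 141.0 to 167.2 CPM in naïve mice. The part of such cells in the level of *Tgfb1* was not tested. In *RiboTag*, *Tgfb1* had 4.83, 8.92 and 3.79 CPM in naïve mice and 9.27, 10.2, 14.2 and 8.04 CPM at IM3h, which overlapped (0.89 ± 0.51, adjusted p = 0.302). At IM24h it had 4.78, 0, 8.87 and 15.1 CPM (0.37 ± 1.43, adjusted p = 0.947). At IM72h library 3 held 42 counts and the others 1, 0 and 0, and without library 3 the sign turned from 0.93 to -4.99 (adjusted p = 0.0319).

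*Tgfb3*, on chromosome 12 from 86056745 to 86079041, encodes TGF-β3 and fell in *RiboTag* mRNA at IM3h. Naïve *RiboTag* libraries held 21.7, 27.3 and 37.0 CPM and IM3h libraries 6.11, 6.30, 7.79 and 7.10 CPM, far apart and with little spread at IM3h. The fall was 2.01 ± 0.35 on the log2 scale (4.03-fold, adjusted p = 0.00318) and held with every library left out (highest adjusted p = 0.0356). In *ME* the levels were 25.9, 27.8 and 33.7 CPM in naïve mice and 24.2, 33.4 and 25.3 CPM at IM3h, which overlapped (-0.03 ± 0.17, adjusted p = 0.911). The fall in *RiboTag* exceeded the difference in *ME* by -1.89 ± 0.37 in the interaction (adjusted p = 0.0201). That call was lost on reference genes and with 6 of 13 libraries left out (highest adjusted p = 0.184 and 0.0828). At IM24h the *RiboTag* libraries held 17.4, 23.3, 0 and 5.92 CPM and at IM72h 0, 1.32, 0 and 17.9 CPM (-1.26 ± 1.04, adjusted p = 0.698, and -2.55 ± 1.92, adjusted p = 0.583). *ME* libraries held 19.0, 9.41, 17.8 and 29.2 CPM at IM24h and 23.5, 30.9, 41.9 and 32.2 CPM at IM72h, neither of them called (adjusted p = 0.166 and 0.631). Like *Bmp4*, *Tgfb3* was lower in *RiboTag* at IM3h together with fibroblast-like and smooth muscle markers, the latter summing to 1687 to 3968 CPM there against 4353 to 6658 CPM in naïve libraries. Mesothelial markers were lower there too (6.97 to 68.2 against 84.3 to 238.6 CPM), as were markers of interstitial cells of Cajal (59.3 to 140.0 against 161.7 to 222.9 CPM). Whether the level of *Tgfb3* follows from these cells was not tested.

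Before surgery, *Tgfb2* was the member enriched in the *RiboTag* fraction. On a scale set over the naïve libraries of both fractions it stood at 564.1, 476.0 and 390.6 CPM in *RiboTag* and at 89.7, 80.7 and 98.1 CPM in *ME*, without overlap. The difference was 2.41 ± 0.19 (5.32-fold, adjusted p = 0.000115) and held in every other setting and with each library left out. It was the 1 member called of 7 tested, where 26.2% of all genes were called in either direction. *Bmp2* was on the other side, with 1.55, 6.63 and 8.68 CPM in *RiboTag* against 15.4, 15.2 and 17.1 CPM in *ME*. Its groups did not overlap, and its difference of -1.49 ± 0.55 was not called (adjusted p = 0.0748). *Inhba* (-0.13 ± 0.39, adjusted p = 0.831), *Bmp4* (0.15 ± 0.25, adjusted p = 0.685) and *Tgfb3* (0.33 ± 0.25, adjusted p = 0.358) overlapped between the fractions. *Tgfb1* (1.13 ± 0.56, adjusted p = 0.170) and *Fst* (0.76 ± 0.66, adjusted p = 0.432) were not called either, although the *Fst* groups did not overlap. The fractions come from different Cre lines and from separate tables.

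**Figure D3:**
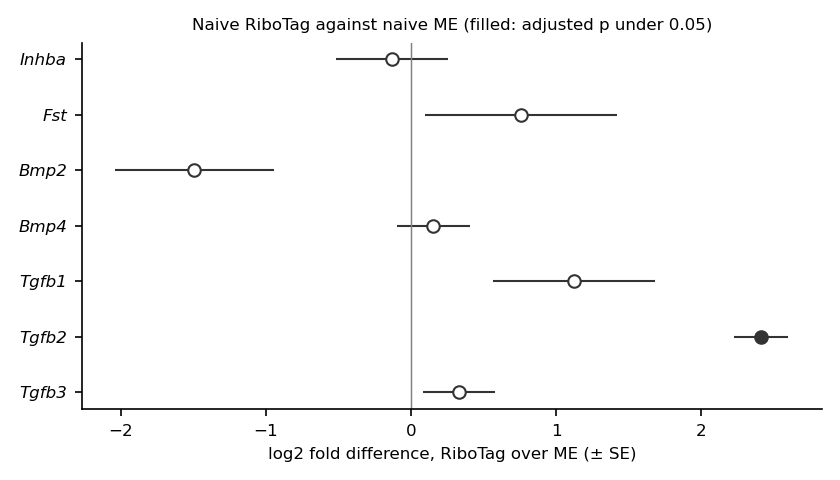
Log2 difference between naïve *RiboTag* and naïve *ME* libraries (points) with its standard error (bars) for the 7 members that passed the filter on low counts. The filled point, *Tgfb2* at 2.41, has an adjusted p under 0.05, and *Bmp2* at -1.49 lies on the side of *ME*.

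In the tests between fractions, 2 of 9 members tested were called at IM3h (*Inhba* and *Tgfb3*, background 1.64% in either direction). At IM24h 0 of 8 were called in edgeR (background 0.488%), while *Bmp2* and *Tgfb2*, 2 members, had an unadjusted p under 0.05. In DESeq2 0 were called as well, where 856 of all 17832 genes tested were called. At IM72h 4 of 8 were called, *Bmp4*, *Tgfb2*, *Gdf15* and *Fst*, all with a lower change in *RiboTag* (background 22.4%, of which 9.13% had a higher change in *RiboTag*). Between time points, 1 of 8 members was called in *RiboTag* from IM3h to IM24h, *Tgfb2* (background 1.90%). In *ME* 2 of 8 were called from IM24h to IM72h, *Bmp4* and *Inhba* (background 38.5%). Of the members tested, the libraries of the time point and of naïve mice did not overlap for 5 of 9 in *RiboTag* at IM3h (29.6% of all genes), 2 of 8 at IM24h (21.2%) and 3 of 7 at IM72h (31.0%). In *ME* this held for 6 of 9 (48.0%), 4 of 8 (40.9%) and 7 of 8 (58.8%). In exact permutation tests of means, two-sided, the smallest p that 4 libraries against 3 allow is 0.0286, reached by *Inhba*, *Bmp4* and *Tgfb3* in *RiboTag* at IM3h, and 3 against 3 cannot go below 0.1.

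The deposited counts are split over annotated transcripts, which for *Inhba* end at different places. The longer of them ends at position 16031621 of chromosome 13 and the shorter, of 3 exons, at 16027211, which is 4410 bases nearer to the start. These libraries read the 3′ end of transcripts, and the split is the estimate of the authors' pipeline. The shorter transcript took up 20.1%, 21.1% and 21.1% of the *Inhba* count in naïve *ME* libraries and 44.9%, 44.0% and 40.6% at IM3h, while the gene as a whole was not called. At IM24h the share was 54.6%, 24%, 38.7% and 30.7%, and at IM72h 16.8%, 5.04%, 3.98% and 17.8%. The naïve and IM3h shares in *ME* did not overlap, and at IM72h all 4 lay below both. In *RiboTag* the naïve shares of the shorter *Inhba* transcript were 15.8%, 100% and 31.3%, of 45 to 67 counts, and the IM3h shares 64.9%, 71.9%, 66.0% and 100%, which overlap. At IM24h they were 58.4% to 84.6%. A *Bmp4* transcript that ends 187 bases before the longest one held 50.4% to 78.9% of the *Bmp4* count in *ME* at IM72h and 0% to 9.22% at IM24h, against 11%, 11.8% and 56.1% in naïve mice. In *RiboTag* it held 59.0% to 96.1% in naïve libraries and 17.4% to 100% at IM3h. A *Tgfb2* transcript of 8 exons, where the main one has 7, had at most 0.01 counts in naïve *RiboTag* libraries and 94.7, 6.57, 346.5 and 1488 counts at IM3h, up to 28.6% of the gene. At IM24h it held 0.0421%, 33.7%, 8.08% and 36.1% of the gene, so that the libraries of both groups spread widely. These 3 transcripts were picked after their values were seen and are given without a test.

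**Figure D4:**
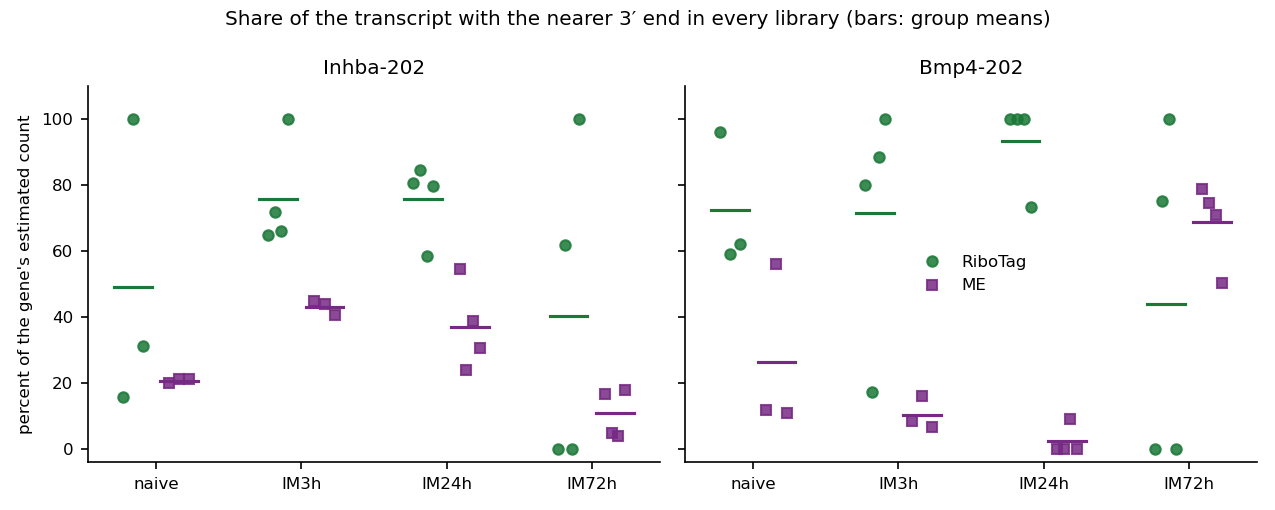
Share of the shorter *Inhba* (left) and *Bmp4* (right) transcript in the estimated count of its gene, in percent, in every library. Green circles are *RiboTag*, purple squares *ME* and bars group means. In *ME*, the shorter *Inhba* transcript went from 20.1% to 21.1% in naïve mice to 40.6% to 44.9% at IM3h, and the *Bmp4* transcript lay at 50.4% or more at IM72h.

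Of the 62 other genes of the pathway, receptors showed 0 calls in *RiboTag* at IM3h in edgeR (12 tested, 0 with an unadjusted p under 0.05), where 8.86% of all genes were higher and 4.44% lower. In *ME* the type I receptor genes *Acvr1* (0.95 ± 0.22, adjusted p = 0.00863) and *Acvr1b* were higher and *Bmpr1a* (-0.49 ± 0.12, adjusted p = 0.0108) and *Bmpr1b* lower. *Bmpr1a*, the BMP receptor ALK3, fell further in *ME*, by 0.91 ± 0.18 at IM24h (adjusted p = 0.00417) and by 1.37 ± 0.11 at IM72h (adjusted p = 2.66e-06). At IM72h 6 of 13 receptors were lower in *ME* and 1 was higher, where 28.3% of all genes were lower and 29.3% higher. Among the lower ones were *Tgfbr1* (-0.63 ± 0.17, adjusted p = 0.00740), *Tgfbr2* (-0.62 ± 0.12, adjusted p = 0.00140), the activin receptor *Acvr2a* (-1.30 ± 0.19, adjusted p = 0.000188) and *Acvr1c*, the listed gene with the largest fall at that time (-2.44 ± 0.39, adjusted p = 0.000320). *Bmpr2*, the BMP type II receptor, was higher in *ME* at IM24h (0.76 ± 0.19, adjusted p = 0.0153), and its values at IM3h and IM72h were 0.20 ± 0.10 and 0.25 ± 0.12 (adjusted p = 0.153 and 0.0946). In *RiboTag* at IM72h 4 of 12 receptors were lower (background 15.1%), among them *Bmpr1a* and *Acvr1*, which at 3 counts or fewer in every library were at least 31.3-fold and 6.52-fold lower.

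**Figure D5:**
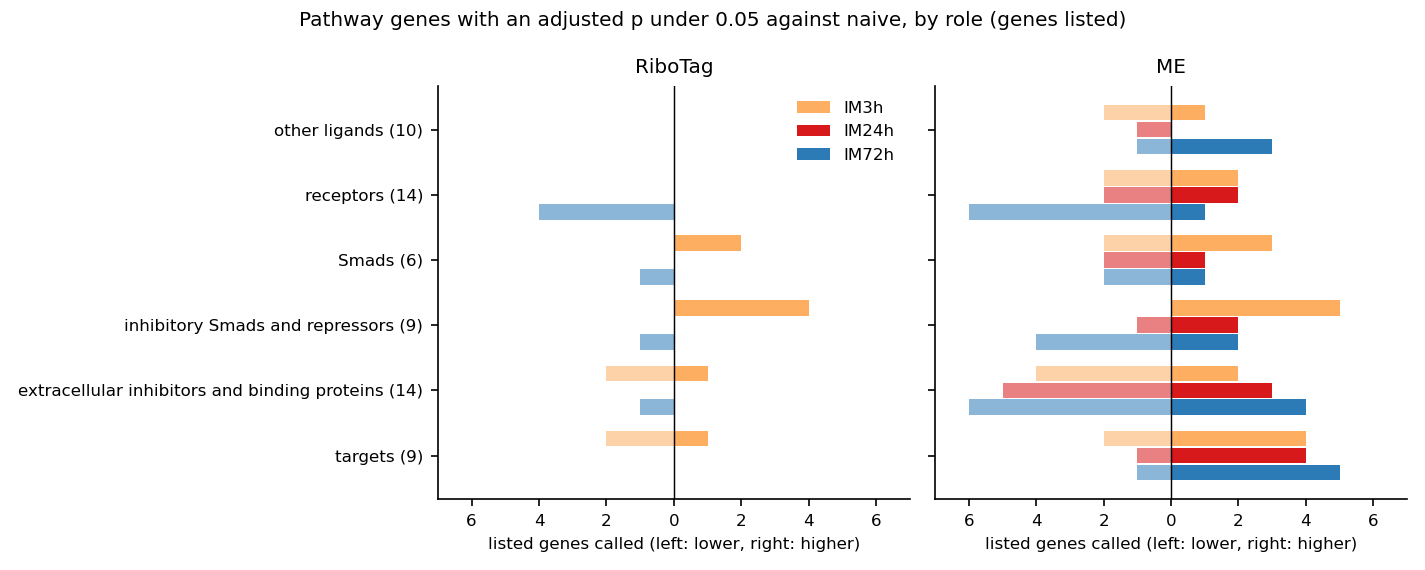
Number of pathway genes with an adjusted p under 0.05 against naïve mice, by role, in *RiboTag* (left) and *ME* (right). Bars to the right are higher and bars to the left lower genes at IM3h (orange), IM24h (red) and IM72h (blue), and the number in brackets is the size of the list. At IM3h, 4 of 9 inhibitory Smads and repressors were higher in *RiboTag* and 5 of 9 in *ME*, with 0 lower.

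Of 9 inhibitory Smads and repressors, which include feedback repressors of the pathway, 4 were higher, 0 lower and 5 not called in *RiboTag* at IM3h (median 0.88 against -0.04 over all genes, of which 8.86% were higher). In *ME* 5 were higher, 0 lower and 4 not called (median 0.96 against 0.00 over all genes, of which 19.3% were higher), with 1 lower at an unadjusted p under 0.05. *Skil*, which encodes the SMAD repressor SnoN, rose by 1.67 ± 0.33 in *RiboTag* (17.7 ± 2.01 against 54.0 ± 16.9 CPM, SD, n = 3 and 4, adjusted p = 0.00648) and by 1.58 ± 0.15 in *ME* (adjusted p = 4.43e-05). *Pmepa1*, a TGF-β target that sequesters receptor Smads, rose by 0.88 ± 0.23 (adjusted p = 0.0256) and 1.02 ± 0.12 (adjusted p = 0.000172). Calls of pathway genes, here and below, are given without the other settings. In *RiboTag* at IM3h 2134 of all genes were called, against 548 on reference genes and 34 in a fit of all groups. *Smad7*, the inhibitory Smad of TGF-β and activin signals, was called in *ME* (0.96 ± 0.22, adjusted p = 0.00714) and not in *RiboTag* (1.31 ± 0.44, adjusted p = 0.0724), and at IM72h it was lower in *ME* (-1.13 ± 0.24, adjusted p = 0.00204). *Smad6*, the inhibitory Smad of BMP signals, was lower in *ME* at IM24h (-1.47 ± 0.34, adjusted p = 0.00938) and IM72h (-1.09 ± 0.26, adjusted p = 0.00414). *Bambi*, a pseudoreceptor, was higher in *ME* at IM3h (1.39 ± 0.42, adjusted p = 0.0285) and IM72h (0.95 ± 0.33, adjusted p = 0.0288). Of the 6 receptor and common Smads, *Smad1* and *Smad3* were higher in *RiboTag* at IM3h (all genes 8.86%). In *ME* at IM3h, 3 were higher and 2 lower (all genes 19.3% and 13.4%), and *Smad9* had the largest fall of the listed genes (-2.35 ± 0.20, adjusted p = 1.56e-05).

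Among 9 textbook targets, *Ccn2*, connective tissue growth factor, was lower in *RiboTag* at IM3h (-1.07 ± 0.28, adjusted p = 0.0241) and higher in *ME* at IM24h (1.08 ± 0.27, adjusted p = 0.0141) and IM72h (1.92 ± 0.34, adjusted p = 0.000601). The BMP targets *Id1*, *Id2* and *Id3* rose in *ME* at IM3h by 0.57 ± 0.19, 0.34 ± 0.12 and 1.08 ± 0.23 (adjusted p = 0.0410, 0.0464 and 0.00505). None of the 3 was called in *RiboTag*, where *Id3* had 2.06 ± 0.65 (adjusted p = 0.0562). *Id2* then fell in *ME* at IM24h by 2.02 ± 0.26, the largest fall of the listed genes there (adjusted p = 0.000489), and at IM72h by 1.68 ± 0.15 (adjusted p = 7.96e-06). In all, 4 of 9 targets were higher and 2 lower in *ME* at IM3h (all genes 19.3% and 13.4%). The counts were 4 and 1 for IM24h (all genes 15.6% and 13.4%), and 5 and 1 for IM72h (all genes 29.3% and 28.3%) with a median of 1.19.

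Of 14 extracellular inhibitors and binding proteins, *Fstl3*, a follistatin-like activin antagonist, was higher in *ME* at all 3 time points (1.34 ± 0.14, 1.25 ± 0.26 and 1.53 ± 0.15; adjusted p = 5.65e-05, 0.00552 and 1.07e-05). It was also higher in *RiboTag* at IM3h (1.13 ± 0.31, adjusted p = 0.0332). *Grem1*, a BMP antagonist, rose in *ME* at IM3h (0.37 ± 0.11, adjusted p = 0.0281) and at IM24h from 602.7 ± 24.6 to 1890 ± 476.6 CPM (SD, n = 3 and 4; 1.65 ± 0.22, adjusted p = 0.000574), when *Bmp4* was lowest. At IM72h it was back at 549.8 ± 125.6 CPM. In *RiboTag* it had 1.71 ± 0.37 at IM24h (adjusted p = 0.0639) and rose from IM3h to IM24h by 1.89 ± 0.34 (adjusted p = 0.0164). *Nog*, encoding noggin, fell in *ME* by 1.71 ± 0.33 at IM24h (adjusted p = 0.00398) and 1.38 ± 0.18 at IM72h (adjusted p = 8.55e-05). *Fstl1* fell there by 0.64 ± 0.17 and 0.53 ± 0.18 (adjusted p = 0.0176 and 0.0281). *Bmper*, a BMP-binding protein of endothelium, had the largest rise at IM72h in *ME* (3.63 ± 0.22, adjusted p = 6.19e-07). *Dcn*, the TGF-β-binding proteoglycan decorin and itself 1 of the fibroblast-like markers, had the largest fall of the list in *RiboTag* at IM3h (-1.63 ± 0.24, adjusted p = 0.00110). Of 10 other ligands, 6 were tested in *RiboTag* at each time point and 0 were called in edgeR, with 0 at an unadjusted p under 0.05. Of all genes there 8.86%, 0.366% and 1.05% were higher and 4.44%, 0.131% and 15.1% lower at the 3 times, so that 0 of 6 is near the background. In *ME*, 6, 7 and 8 of them were tested at IM3h, IM24h and IM72h, of which 1, 0 and 3 were higher (all genes 19.3%, 15.6% and 29.3%) and 2, 1 and 1 lower (all genes 13.4%, 13.4% and 28.3%). The count of 0 was also 0 at an unadjusted p under 0.05. In *RiboTag* at IM24h 0 of 53 pathway genes tested were called in edgeR, and 13 had an unadjusted p under 0.05. Of all 15304 genes tested in that comparison 0.366% were called higher and 0.131% lower, and 2015 had an unadjusted p under 0.05, so that 0 calls is near the background.

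The genes whose log2 CPM over all libraries of a fraction were most like that of *Inhba* were *Steap2* (Pearson r = 0.93), *Mrpl35* (0.93) and *Gm5297* (0.92) over 15 *RiboTag* libraries, and *Hsd17b12* (0.95), *Dnajb11* (0.94) and *Adam10* (0.93) over 14 *ME* libraries. For *Gdf15* they were *Grm7* (0.94), *Timm10* (0.92) and *Hdx* (0.92) in *RiboTag* and *Amz1* (0.92), *Zfp622* (0.90) and *Nop2* (0.90) in *ME*. They are the highest of 17930 and 17919 genes and are a description, since libraries of a group share treatment and depth.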

How the data were processed

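The authors prepared RNA from the whole lysate (input) and from the HA precipitate, made 3′ end libraries and aligned single-end reads to mm10 (the submitters' notes name cutadapt, STAR and Partek). They deposited estimated counts, per transcript for *RiboTag* and per gene and per transcript for *ME*, which are not scaled for library size and of which 31.0% to 67.0% are not whole numbers. Entries with fewer than 10 counts in a table are not listed, and the 5 tables hold 0 columns of other samples. A gene's level is the rounded sum of its transcripts' values, joined by symbol. Libraries were assigned to groups by the group entry of each table line, and they are numbered by the order of their names. The labels list 4 naïve *RiboTag* samples and the tables hold 3.

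Each comparison was fitted on the 2 groups concerned (for the interaction, on both fractions joined by symbol) in edgeR 4.0.16 (R 4.3.3) with TMM, filterByExpr and the two-sided quasi-likelihood test, with Benjamini-Hochberg adjustment over all genes tested. The test was tried on simulated counts with 200 changed genes. The paper gives the n of its RNA-Seq data as mice, while the labels do not link libraries to mice, and p-values measure the spread between libraries. A group with 3 counts or fewer in every library was treated as at the floor, and its change is a bound against the mean CPM of 3 counts per library, which covers counting error only. The smallest p of an exact permutation test is given once.

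The 10 genes were given by name. Named pathway genes are 20 fixed ones plus, in each comparison with naïve mice, the listed gene with the largest rise and the largest fall among those called whose libraries do not overlap, and the likeness rule takes the 3 genes with the highest Pearson r (log2 CPM, prior count 2). Members and lists were chosen with earlier results of these data known. Alternatives were DESeq2 1.42.0, other scalings (RLE, library totals, *Actb*, *Hsp90ab1* and *Rplp1*), no filter, totals without AY036118, summed *ME* transcript counts, 1 fit of all groups of a fraction, the paper's threshold (unadjusted p under 0.05, over 2-fold), and each library left out. Coordinates are from GENCODE vM21 for mm10, promoter windows from RefSeq (7 of 10 members). A few of the listed genes that this rule names, and a glial marker, are not reported here, while counts over a list include its every gene.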

Additional observations from a re-analysis of the deposited data

Results flagged for a closer look

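In 44 groups of 4 libraries, of which chance alone sets about 1 in 20 apart, 4 had a library far from the other 3. In *RiboTag* at IM72h, *Bmp2* stood at 68.2 CPM in library 3 with the other libraries at 0. *Tgfb1* stood at 40.3 CPM in the same library with the others at 0 to 0.475 CPM. *Tgfb3* stood at 17.9 CPM in library 4 with the others at 0 to 1.32 CPM. At IM3h, *Bmp6* stood at 5.70 CPM in library 4 with the others at 0.

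The change after surgery differed between *RiboTag* and *ME* in 6 edgeR interaction tests. At IM3h the difference, *RiboTag* minus *ME* on the log2 scale, was 2.19 for *Inhba* (adjusted p = 0.0463) and -1.89 for *Tgfb3* (adjusted p = 0.0201). At IM72h it was -2.85 for *Bmp4* (adjusted p = 0.0228), -1.94 for *Tgfb2* (adjusted p = 0.00584), -5.62 for *Gdf15* (adjusted p = 0.0446) and -4.79 for *Fst* (adjusted p = 0.00604). The values of *Gdf15* and *Fst* are fitted against *RiboTag* groups with 3 counts or fewer in every library and are no measure of size. That of *Gdf15* was -1.61 without naïve *RiboTag* library 2 (adjusted p = 0.778). The *ME* mice of IM72h and of the naïve group belong to different lines, so that line and treatment cannot be told apart in the 4 values of IM72h. At IM3h the line differs between the fractions, so that fraction and line cannot be told apart in the values of *Inhba* and *Tgfb3*.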

How the results depend on the processing

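The counts of members called in *ME* against naïve mice (5, 3 and 5 at IM3h, IM24h and IM72h) stayed within 1.5 times in every alternative run, and ranged from 4 to 5, 2 to 4 and 5 to 5 with a library left out. In *RiboTag* at IM3h, 4 members were called and 0 in a fit of all groups, with 2 to 4 when a library was left out. At IM24h the count was 1, and it was 2 in DESeq2 and at the threshold of the paper (unadjusted p under 0.05, over 2-fold), 0 on library totals, on reference genes, without AY036118 and in a fit of all groups, and 0 to 2 with a library left out. At IM72h the count was 2, and it was 1 in DESeq2, without AY036118 and in a fit of all groups, 0 without a filter, and 1 to 3 with a library left out. From IM3h to IM24h in *RiboTag* it was 1, and 0 on library totals and on reference genes (0 to 1 with a library left out). From IM24h to IM72h in *ME* it was 2, and 5 in a fit of all groups (2 to 4). Between naïve fractions it was 1, and 2 in DESeq2 and at the paper's threshold and 4 on library totals (1 to 2). In the interactions it was 2 at IM3h, and 1 with RLE factors and 0 on reference genes (0 to 2). At IM24h it was 0, and 2 at the paper's threshold (0 to 1). At IM72h it was 4 (2 to 5). The cause of these changes was not tested. Of 97 member tests, 30 were called, and 14 of these held in every alternative and with each library left out.

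A direction turned where a value was called in 3 cases. *Tgfb2* in *ME* at IM72h turned from -0.43 to 0.16 on library totals. *Tgfb1* in *RiboTag* at IM72h turned to -4.99 and the IM72h interaction of *Bmp2* to -8.01 without *RiboTag* IM72h library 3 (with a library left out, -4.99 to 1.37 and -8.01 to 2.38). In 54 other cases the sign changed with neither value called.

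The other scalings moved the median of all genes. Library totals moved it to -0.24, -0.96 and -2.13 in *RiboTag* and to -0.26, 0.66 and 0.62 in *ME* at IM3h, IM24h and IM72h. Reference genes moved it to -0.45, -1.51 and -2.07 and to -0.41, -0.35 and -0.58. The share of higher genes among all calls went from 66.6% to 51.2% and 44.2% in *RiboTag* at IM3h, on totals and on reference genes. In *ME* it went from 59.0% to 33.9% and 22.7%, from 53.9% to 89.7% and 28.9%, and from 50.9% to 81.2% and 20.1% at the 3 time points. All genes called numbered 2134 in *RiboTag* at IM3h (548 on reference genes, 34 in a fit of all groups, 1100 to 2849 with a library left out) and 76 at IM24h (858 in DESeq2, 1 on totals and on reference genes, 238 without a filter, 47 in a fit of all groups, 0 to 483). At IM72h they numbered 2191 (34 without a filter, 1258 in a fit of all groups, 1288 to 3831). In *ME* at IM24h they numbered 4740 (2617 on reference genes, 2790 to 5972). For the remaining comparisons they numbered 270 from IM3h to IM24h in *RiboTag* (1166 in DESeq2, 87 on totals, 52 on reference genes, 613 without a filter, 45 in a fit of all groups, 48 to 543 with a library left out), 6272 from IM24h to IM72h in *ME* (4109 on reference genes, 4874 to 7166) and 3876 between naïve fractions (2451 on reference genes, 1931 to 4786). In the interactions they numbered 291 (791 in DESeq2, 39 on reference genes, 80 to 648), 87 (856 in DESeq2, 447 on totals, 56 on reference genes, 6 to 830) and 3813 (7057 on totals, 3095 to 6180).

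No paired analysis was possible because no replicate number is part of a library's name in the tables. The depth of *RiboTag* at IM72h, below that of every other group, limits members of few counts most.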
